A study of Homo sapiens and Mus musculus with 21 samples.

Results

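The genes of fatty acid synthesis and desaturation were followed across all groups and contrasts of a mesothelioma RNA sequencing series. They were the 10 genes of a list of names: ACLY, ACSS2, ACACA, FASN, ELOVL6, ELOVL5, SCD, FADS1, FADS2 and SREBF1, with title-case orthologs in the mouse and Scd1 standing for SCD. They made up 10 of the 60674 genes of each human table and 10 of the 41214 genes of the mouse table. All 10 passed the filter on low counts in each table, among 15999 genes tested in the drug table, 15872 in the knockdown table and 12225 in the mouse table. The 10 were chosen with earlier results of these data known, so the counts of them called, given below beside shares of all genes, are descriptions.

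The series held 21 bulk libraries of mesothelioma cells, and mesothelioma is a tumour of the lining of the chest cavity. The drug table held 8 libraries, 2 for each of 4 groups: 2 human lines were used, H2731, whose label is Bap1 mutated, and H2810, whose label is Bap1 wildtype, and each was given DMSO, the vehicle, or GSK126, which inhibits the histone methyltransferase EZH2. The knockdown table held 8 libraries, again 2 per group: H2810 and the human line MSTO-211H, each with a random shRNA or with an shRNA against BAP1 (shBAP1). BAP1 is a deubiquitinase and tumour suppressor. The mouse table held 3 libraries of BNC cells (Bap1-/-;Nf2-/-;Cdkn2ab-/-) and 2 of NC cells (Nf2-/-;Cdkn2ab-/-), so that the loss of Nf2 and Cdkn2ab was common to both mouse groups. Each BAP1 state of the drug table was represented by a single line, so BAP1 state and line cannot be told apart there. The sources used here give neither dose nor duration of treatment. In bulk libraries fewer cells of a type and less RNA per cell cannot be told apart. The labels do not say whether libraries of a group came from separate cultures, so the p-values measure the spread between these libraries, which may be technical.

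Cells build fatty acids from cytosolic acetyl-CoA, which ACLY makes from citrate and ACSS2 from acetate. ACACA carboxylates acetyl-CoA to malonyl-CoA in the committed step, FASN joins these units into palmitate, ELOVL6 lengthens palmitate to stearate, and SCD places the first double bond to give oleate and palmitoleate. FADS2, ELOVL5 and FADS1 act in turn on dietary polyunsaturated fatty acids as desaturase, elongase and desaturase. SREBF1 encodes a transcription factor that is held in the endoplasmic reticulum by the INSIG proteins, is carried to the Golgi by SCAP when sterols are low, and then activates most of these genes after its cleavage, together with its relative SREBF2.

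Library totals ran from 17927837 to 22927239 counts in the drug table, from 19707304 to 23217215 in the knockdown table and from 13693927 to 22916482 in the mouse table. BAP1 itself fell from 116 ± 1.54 to 16.9 ± 4.90 CPM (read counts scaled to a common library size, mean ± SD, n = 2 per group) with shBAP1 in H2810, and from 101 ± 1.84 to 16.6 ± 1.64 CPM in MSTO-211H. Under DMSO it stood at 69.7 ± 1.04 CPM in H2731 against 146 ± 2.85 CPM in H2810. In the mouse, Bap1 was 30.5, 33.3 and 44.1 CPM in BNC replicates 4, 5 and 6 and 60.2 and 62.0 CPM in NC replicates 4 and 5, a difference that missed the threshold (log2 fold change -0.76 ± 0.23 SE, adjusted p = 0.62). The sources used here do not name the exons deleted in Bap1, so reads outside them may remain in BNC. BNC replicate 6 stood apart: its counts gave a chi-square per degree of freedom, over genes, of 309.9 and 292.7 against BNC replicates 4 and 5, while those 2 gave 14.1 against each other. The 2 NC libraries also differed, with 128.9. Of 16 mesothelial marker genes, the summed level was 139 CPM in BNC replicate 6 and from 1033 to 2568 CPM in the other mouse libraries, and Calb2 was listed at 0 in all 5. In H2810 the 16 human markers summed to 3520 to 3704 CPM under DMSO. Most of this lay outside UPK3B, which was near 0 (0.0529 CPM under DMSO), MSLN, which was low (1.97 CPM), and WT1 (22.8 CPM). Summed over 10 adipocyte markers, levels reached at most 11.5 CPM in the human libraries and reached from 28.2 to 166.6 CPM in the mouse BNC libraries.

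Where the genes lie is given from the coordinates in the files. No label names the human build, and for 9 of the 10 human genes the start and end equal those of the GENCODE annotation of GRCh38. SCD (ENSG00000099194) lies at chr10:100347233-100364826, ELOVL6 (ENSG00000170522) at chr4:110045846-110199199, ELOVL5 (ENSG00000012660) at chr6:53267398-53349179 and ACSS2 (ENSG00000131069) at chr20:34872146-34927962. Chromosome 17 carries ACACA (ENSG00000278540, chr17:37084992-37406836), ACLY (ENSG00000131473, chr17:41866917-41930542), FASN (ENSG00000169710, chr17:82078338-82098294) and SREBF1 (ENSG00000072310, chr17:17810399-17837011). FADS1 (ENSG00000149485, chr11:61799627-61829318) lies wholly within the span of FADS2 (ENSG00000134824, chr11:61792980-61867354) on the opposite strand. Of their exon bases, 5.57% of FADS1 and 5.11% of FADS2 overlap exons of another gene. They overlap each other on opposite strands, and on the same strand FADS2 overlaps FEN1 and FADS1 overlaps MIR1908. Exons of RAI1 on the opposite strand overlap 6.75% of the exon bases of SREBF1. Noncoding RNA genes on the opposite strand overlap 3.30% of those of ELOVL6 and 3.0% of those of ACLY. Reads from stretches shared on the same strand cannot be told apart. Nor can those from opposite strands, since no label gives the strand setting of the counting. No exon base of SCD, FASN, ACACA, ACSS2 or ELOVL5 is shared.

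Promoter sequence is shown for SCD, ACSS2, ELOVL6, SREBF1 and ACLY, the genes that set the patterns of the drug table. SCD rose in both lines, and ACSS2 and ELOVL6 rose far more in H2731. SREBF1 and ACLY were called in opposite directions in the 2 lines, though the call of SREBF1 in H2731 depended on single libraries. The stretches are those before the annotated start site, 5′ to 3′ on the gene's strand, that hold no annotated exon, from RefSeq promoter windows on GRCh38.p14. Capitals mark CCAAT, the SRE-like TCACNCCAC, GGGCGG and CACGTG on either strand, so that CCAAT also appears as ATTGG and GGGCGG as CCGCCC.
SCD, chr10:100346983-100347232, plus strand: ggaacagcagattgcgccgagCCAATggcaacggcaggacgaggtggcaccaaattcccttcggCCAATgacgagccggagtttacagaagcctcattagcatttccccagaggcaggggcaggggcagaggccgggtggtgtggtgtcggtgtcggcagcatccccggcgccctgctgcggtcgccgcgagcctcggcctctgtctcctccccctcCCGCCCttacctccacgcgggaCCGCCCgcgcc
ACSS2, chr20:34874739-34874941, plus strand: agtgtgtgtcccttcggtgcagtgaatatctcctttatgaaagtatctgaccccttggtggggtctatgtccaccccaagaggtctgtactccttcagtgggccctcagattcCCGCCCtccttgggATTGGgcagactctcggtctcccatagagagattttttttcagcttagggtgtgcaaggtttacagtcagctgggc
ACSS2, chr20:34876362-34876571, plus strand: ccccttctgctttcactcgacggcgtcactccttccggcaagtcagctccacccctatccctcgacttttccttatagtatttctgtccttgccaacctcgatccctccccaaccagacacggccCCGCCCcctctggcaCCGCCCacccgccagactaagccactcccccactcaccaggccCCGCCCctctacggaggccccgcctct
ELOVL6, chr4:110198654-110198841, minus strand: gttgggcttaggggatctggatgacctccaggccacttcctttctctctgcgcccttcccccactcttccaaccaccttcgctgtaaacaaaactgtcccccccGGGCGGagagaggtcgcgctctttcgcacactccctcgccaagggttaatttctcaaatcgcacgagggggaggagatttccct
SREBF1, chr17:17837003-17837236, minus strand: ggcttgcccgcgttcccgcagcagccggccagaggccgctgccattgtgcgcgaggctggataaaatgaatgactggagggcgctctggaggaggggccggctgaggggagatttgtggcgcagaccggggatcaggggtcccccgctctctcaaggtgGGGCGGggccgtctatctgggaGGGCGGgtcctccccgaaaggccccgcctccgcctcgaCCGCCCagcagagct
ACLY, chr17:41919023-41919272, minus strand: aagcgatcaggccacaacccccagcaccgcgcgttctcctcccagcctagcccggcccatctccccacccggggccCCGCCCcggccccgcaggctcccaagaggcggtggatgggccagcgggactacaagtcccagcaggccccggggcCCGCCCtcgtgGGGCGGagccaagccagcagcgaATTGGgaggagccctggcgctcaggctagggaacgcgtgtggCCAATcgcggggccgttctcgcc

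The promoter table held windows for 9 of the 10 genes, 14 windows of 300 bases in all, with more than 1 start for FADS2, ACACA, ACLY and ACSS2. CCAAT, the letters bound by NF-Y, was found for 6 of the 9 genes, in 8 of their 14 windows and in 34.6% of all 35116 windows of the table. SCD held CCAAT at -229 to -225 and at -186 to -182 from the start site. ACLY held it at -65 to -61 and -23 to -19 from the start whose stretch is shown above. From the other start of ACLY the same bases lie at -136 to -132 and -94 to -90. The windows of ACLY overlap, so these matches count in both. GGGCGG, the letters of a GC box, was found for 8 of the 9 genes, in 11 of the 14 windows and in 45.0% of all windows. TCACNCCAC was found in 0 of the 14 windows and in 1.13% of all windows, and CACGTG in the ELOVL5 window and in 7.26% of all windows. A match, or its absence, describes the letters of the window and not binding by NF-Y or SREBF1.

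GSK126 raised most of the pathway in H2731. Of the 10 genes, 8 were higher and 1 was lower with the inhibitor, beside 13.8% of all genes called higher and 10.9% called lower, and the median log2 fold change of the 10 was 0.44 beside 0.00 for all genes tested. SCD, ELOVL6 and ACSS2 at least doubled, FADS1, FASN, ACLY, FADS2 and ACACA rose by less, ELOVL5 was not called, and SREBF1 was slightly lower. Together the 10 genes took from 0.638% to 0.654% of all counts under DMSO and from 0.975% to 0.991% with GSK126.

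Among the desaturases, SCD stood at 1635 and 1659 CPM under DMSO and at 3466 and 3552 CPM with GSK126 in H2731. Its log2 fold change was 1.09 ± 0.03 (SE, adjusted p = 1.51e-14), and by p it ranked 1 of the 15999 genes tested. FADS1 went from 838 and 819 CPM to 1228 and 1221 CPM (log2 fold change 0.56 ± 0.03, adjusted p = 1.19e-10). FADS2 went from 1476 and 1392 CPM to 1860 and 1854 CPM (0.37 ± 0.03, adjusted p = 8.83e-08). For each of the 3 desaturases both libraries with the drug lay above both libraries with DMSO. Here and below, how often groups of 2 libraries lie apart was not counted over all genes. Uncalled genes can show it too, as ELOVL5 did with GSK126 in H2810, so it adds little to the test.

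The enzymes that supply acetyl-CoA rose unequally in H2731. ACSS2, which uses acetate, was 37.9 and 34.7 CPM under DMSO and 96.3 and 98.3 CPM with GSK126, a log2 fold change of 1.42 ± 0.05 (adjusted p = 2.87e-13) and rank 6 of all genes by p. ACLY, which uses citrate, was 598 and 579 CPM under DMSO and 751 and 775 CPM with the drug, a log2 fold change of 0.37 ± 0.03 (adjusted p = 1.03e-07). Neither pair of groups overlapped.

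The synthase FASN in H2731 went from 677 and 608 CPM to 908 and 918 CPM (log2 fold change 0.51 ± 0.06, adjusted p = 3.4e-06). The carboxylase ACACA was 294.96 and 294.38 CPM under DMSO and 320.2 and 354 CPM with GSK126 (0.20 ± 0.05, adjusted p = 0.00975), and this call was lost without DMSO replicate 1 (adjusted p = 0.0634), without DMSO replicate 2 (0.0568) and without GSK126 replicate 2 (0.192). ELOVL6, the elongase of palmitate, had the largest log2 fold change of the 10, from 23.0 and 25.9 CPM to 68.5 and 70.1 CPM (1.51 ± 0.06, adjusted p = 1.44e-12, rank 10 by p). ELOVL5 stayed uncalled, at 798 and 791 CPM under DMSO and 794 and 810.3 CPM with the drug (0.01 ± 0.03, adjusted p = 0.80). SREBF1 was 142 and 135 CPM under DMSO and 129 and 114 CPM with GSK126 (-0.18 ± 0.05, adjusted p = 0.0143). Its groups did not overlap, but the call was lost without DMSO replicate 1 (adjusted p = 0.149) and without GSK126 replicate 2 (0.282), and DESeq2 gave an adjusted p of 0.0525.

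**Figure D1:**
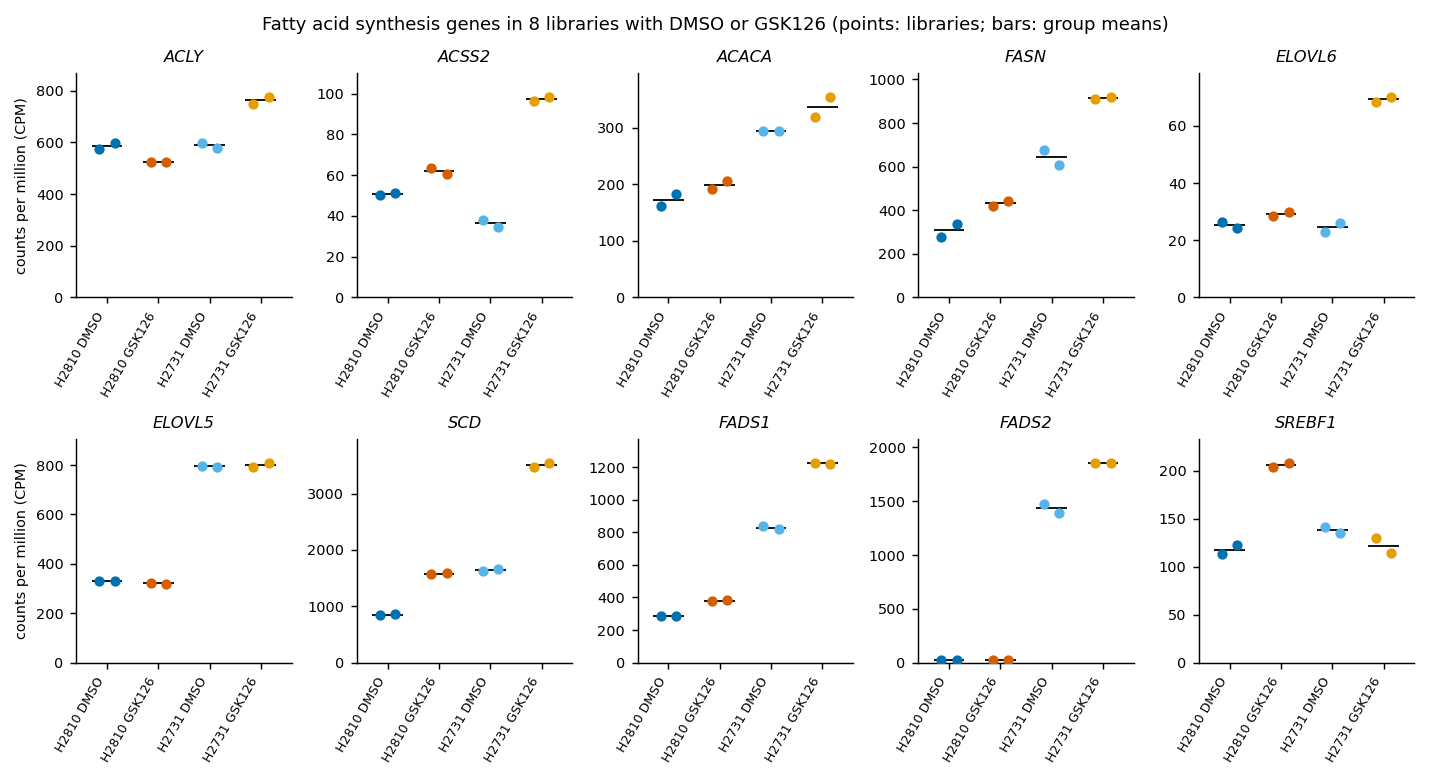
Levels of the 10 genes in the 8 libraries of the drug table, in CPM on an axis that starts at 0; each point is a library and each bar a group mean (n = 2). SCD, FASN and FADS1 rise with GSK126 in both lines, ACSS2 and ELOVL6 rise mostly in H2731, SREBF1 rises in H2810 alone of the 2 lines, and FADS2 is near the floor of its axis in H2810 (22.3 to 25.4 CPM).

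In H2810, labelled Bap1 wildtype, GSK126 also moved 8 of the 10 genes up and 1 down, beside 16.3% of all genes called higher and 12.9% called lower. The median log2 fold change of the 10 was 0.25, beside 0.00 for all genes. SCD and the regulator SREBF1 had the largest rises, FASN and FADS1 followed, and ACLY was the gene that fell. The 10 genes took from 0.262% to 0.274% of counts under DMSO and from 0.374% to 0.381% with GSK126.

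SCD in H2810 was 842 and 867 CPM under DMSO and 1572 and 1588 CPM with GSK126, a log2 fold change of 0.89 ± 0.03 (adjusted p = 5.91e-14, rank 13 by p). SREBF1 went from 113 and 123 CPM to 204 and 208 CPM (0.81 ± 0.05, adjusted p = 4.37e-10). FASN went from 278 and 336 CPM to 419 and 444 CPM (0.49 ± 0.06, adjusted p = 5.69e-06). In these 3 genes each drug library exceeded each DMSO library.

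FADS1 went from 284 and 286 CPM to 378 and 383 CPM in H2810 (0.42 ± 0.03, adjusted p = 8.85e-09), and ACSS2 from 50.3 and 51.2 CPM to 63.4 and 60.4 CPM (0.29 ± 0.05, adjusted p = 0.000336). ACLY went the other way, from 576 and 597 CPM to 526 and 525 CPM (-0.16 ± 0.03, adjusted p = 0.00146). ELOVL5 was 331 and 329 CPM under DMSO and 322 and 320.1 CPM with the drug and was not called (-0.04 ± 0.03, adjusted p = 0.404).

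The remaining 3 calls in H2810 were small and depended on single libraries. ACACA (161 and 183 CPM to 192 and 207 CPM, log2 fold change 0.21 ± 0.06, adjusted p = 0.007) lost its call without DMSO replicate 1 (adjusted p = 0.0968) and without GSK126 replicate 2 (0.10). ELOVL6 (26.5 and 24.2 CPM to 28.4 and 29.9 CPM, 0.20 ± 0.07, adjusted p = 0.0377) lost it without DMSO replicate 2 (0.298), GSK126 replicate 1 (0.0618) or GSK126 replicate 2 (0.216), and with DESeq2 (0.195). FADS2 (22.8 and 22.3 CPM to 25.3 and 25.4 CPM, 0.17 ± 0.06, adjusted p = 0.0399) lost it when any of the 4 libraries was left out (adjusted p from 0.0775 to 0.194), and with DESeq2 (0.121), limma-voom (0.149), no low-count filter (0.0596) or a fit of H2810 alone (0.058). Without GSK126 replicate 2, 5 of the 10 genes were called higher.

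The responses of the 2 lines were compared by the interaction of line and drug. The response in H2731 was higher than that in H2810 for 6 genes, ACLY among them with a fall in H2810, and SREBF1 was the 1 gene with a lower response in H2731, beside 8.08% and 6.66% of all genes called in the respective directions. The difference was 1.30 ± 0.10 on the log2 scale for ELOVL6 (adjusted p = 8.37e-09), 1.13 ± 0.07 for ACSS2 (adjusted p = 1.86e-09), 0.53 ± 0.05 for ACLY (adjusted p = 1.68e-07) and 0.20 ± 0.04 for SCD (adjusted p = 0.00227). For SREBF1 it was -0.99 ± 0.07 (adjusted p = 1.07e-08). FADS2 (0.20 ± 0.06, adjusted p = 0.0407) and FADS1 (0.15 ± 0.05, adjusted p = 0.0339) passed the threshold by little. The call of each was lost when almost any library was left out, all but H2731 DMSO replicate 1 (adjusted p from 0.0852 to 0.157 for FADS2 and from 0.0502 to 0.189 for FADS1 over the 7 others), and with DESeq2 (0.18 and 0.083), and that of FADS2 with limma-voom (0.149). For FASN and ACACA the difference was 0.02 ± 0.09 and -0.02 ± 0.08, and for ELOVL5 0.05 ± 0.05, none of them called.

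Of the controllers of SREBP processing, INSIG1, the retention protein, rose in both lines, from 132 ± 5.14 to 194 ± 1.10 CPM in H2810 (log2 fold change 0.56 ± 0.04, adjusted p = 1.05e-09) and from 190.3 ± 1.14 to 368 ± 0.872 CPM in H2731 (0.95 ± 0.04, adjusted p = 4.62e-13). Its rise was larger in H2731 by 0.39 ± 0.05 (adjusted p = 2.1e-05). SREBF2 rose by a log2 fold change of 0.15 ± 0.04 in H2810 (adjusted p = 0.00411) and 0.20 ± 0.03 in H2731 (adjusted p = 0.000289). SCAP was not called in either line (-0.10 ± 0.04, adjusted p = 0.091, and -0.15 ± 0.06, adjusted p = 0.0574).

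Other genes around the pathway are counted beside the share of all genes called with the drug, 16.3% higher and 12.9% lower in H2810 and 13.8% higher and 10.9% lower in H2731. Of 12 genes of substrate and NADPH supply, 8 rose and 1 fell in H2731, where PGD (0.39 ± 0.04, adjusted p = 8.49e-08) and IDH1 (0.33 ± 0.04, adjusted p = 2.18e-06), which make NADPH, had the smallest p. In H2810 1 of the 12 rose and 2 fell, CS, the citrate synthase (-0.26 ± 0.04, adjusted p = 1.44e-05), and TKT of the pentose phosphate pathway (-0.20 ± 0.03, adjusted p = 0.000184). Of 17 tested genes of activation and esterification, 9 rose in H2810 and 5 in H2731, and 0 fell in either. ACSL1, which attaches coenzyme A to fatty acids, and LPIN1, a phosphatidate phosphatase, were in both sets, with log2 fold changes of 0.61 ± 0.05 and 0.57 ± 0.04 in H2810 and 1.03 ± 0.05 and 0.76 ± 0.04 in H2731.

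Of 9 other elongation genes tested, 4 rose and 2 fell in H2810 and 2 rose and 1 fell in H2731, the latter near the shares of all genes. ELOVL7 rose in H2810 (0.86 ± 0.09, adjusted p = 2.19e-07), HACD2 fell there (-0.53 ± 0.05, adjusted p = 3.93e-08), and ELOVL2 rose in H2731 (0.72 ± 0.12, adjusted p = 0.000163). Of 8 other desaturases and electron donors, 2 rose and 2 fell in H2810 and 1 rose in H2731. FADS3 was the leading fall in H2810 (-0.44 ± 0.06, adjusted p = 5.62e-06). Of 9 tested genes listed with synthesis, 3 rose in H2810, MID1IP1, a partner of acetyl-CoA carboxylase, among them (0.85 ± 0.12, adjusted p = 2.03e-05), and 0 were called in H2731.

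Of 15 SREBP and lipogenic regulators tested, 6 rose and 2 fell in each line. PPARG, the regulator of adipocyte genes, rose from 3.64 ± 0.291 to 8.59 ± 0.286 CPM in H2731 (1.24 ± 0.12, adjusted p = 2.48e-07). Of 24 genes of fatty acid oxidation and uptake, 6 rose and 3 fell in H2810 and 5 rose and 4 fell in H2731. In H2810 the share of these that fell was close to the 12.9% of all genes. PPARGC1A rose from 0.582 ± 0.0645 to 4.11 ± 0.00483 CPM in H2810 (2.81 ± 0.24, adjusted p = 2.69e-08).

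Mesothelial markers moved with the drug in the same libraries: of 13 tested, 6 fell and 1 rose in each line, and their summed level went from 3520.4 to 3704 CPM under DMSO to 2638 to 2656 CPM with GSK126 in H2810, and from 7447 to 8075 CPM to 6262 to 6367 CPM in H2731. Their part in the changes of the 10 genes was not tested. Summed adipocyte markers were from 2.54 to 2.57 CPM under DMSO and from 2.18 to 2.64 CPM with the drug in H2810. In H2731 they were from 7.09 to 7.44 CPM and from 11.2 to 11.5 CPM, most of it LPL (4.60 ± 0.294 to 7.89 ± 0.879 CPM). Summed endothelial markers went from 11.4 and 11.7 CPM to 19.5 and 19.9 CPM in H2810, and there too their part was not tested.

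**Figure D2:**
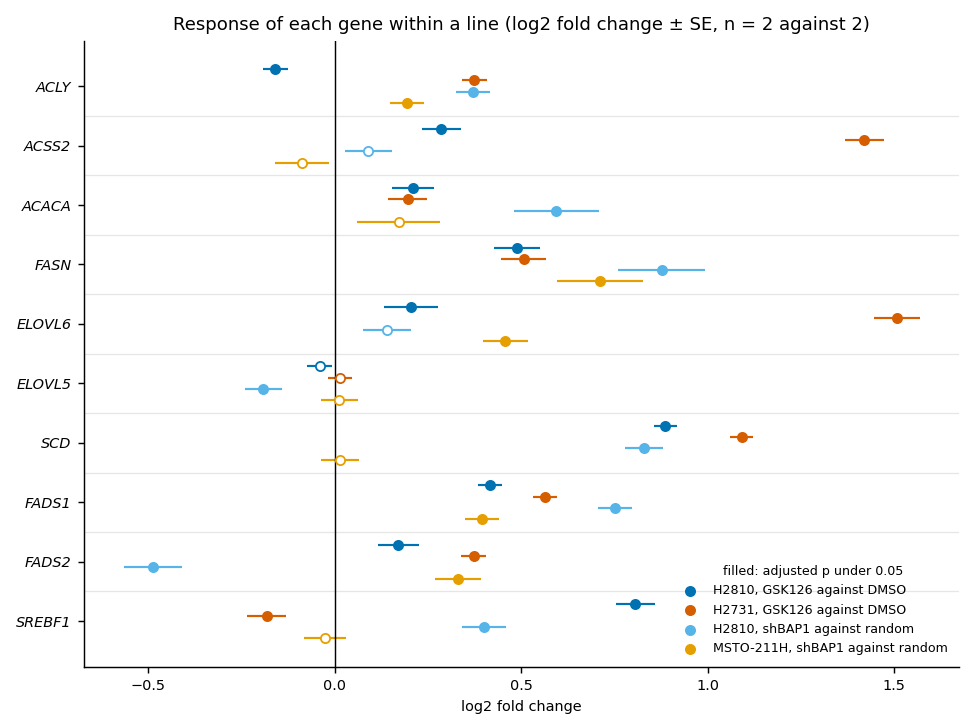
Log2 fold change of each gene within a line, with its SE, for GSK126 against DMSO (H2810, H2731) and for the BAP1 hairpin against the random one (H2810, MSTO-211H), with n = 2 against 2 each; filled points passed an adjusted p of 0.05. FASN and FADS1 are filled and to the right of 0 in all 4 comparisons, SCD in 3 of them, and SREBF1 lies at 0.81 in H2810 and at -0.18 in H2731 with GSK126.

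Under DMSO, 82.2% of all genes were called between the lines, so that the number of the 10 genes called is no result about them, and their sizes are described. In H2731, 7 of the 10 were higher than in H2810 and 1 was lower, beside 41.5% of all genes called higher and 40.7% called lower. This comparison shares its DMSO libraries with both drug comparisons. FADS2 had by far the largest difference of the 10, at 22.8 and 22.3 CPM in H2810 and 1476 and 1392 CPM in H2731 (log2 fold change 5.99 ± 0.05, adjusted p = 4.4e-26, rank 12 by p). Its neighbour FADS1 was 285 ± 1.66 CPM in H2810 and 829 ± 13.2 CPM in H2731 (1.54 ± 0.03, adjusted p = 2.35e-19). ELOVL5, which acts between these desaturases, was 330.2 ± 1.14 and 794 ± 5.08 CPM (1.27 ± 0.03, adjusted p = 4.68e-18). The enzymes of polyunsaturated fatty acids were thus all 3 higher in H2731.

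FASN was 307 ± 41.2 CPM in H2810 and 642 ± 49.3 CPM in H2731 (1.06 ± 0.06, adjusted p = 3.05e-12), SCD 855 ± 17.2 and 1647 ± 16.5 CPM (0.95 ± 0.03, adjusted p = 1.92e-16), and ACACA 172 ± 15.9 and 295 ± 0.413 CPM (0.77 ± 0.05, adjusted p = 6.3e-11). SREBF1 differed by 0.23 ± 0.05 (adjusted p = 0.000539). ACSS2 was lower in H2731, at 36.3 ± 2.27 against 50.7 ± 0.632 CPM (-0.48 ± 0.06, adjusted p = 1.41e-07). ACLY (0.00 ± 0.03, adjusted p = 0.898) and ELOVL6 (-0.05 ± 0.07, adjusted p = 0.498) were not called. With GSK126, ACSS2 thus passed from the lower level in H2731 to the higher one, at 97.3 ± 1.41 CPM against 61.9 ± 2.07 CPM in H2810.

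With the random hairpin, 79.7% of all genes were called between MSTO-211H and H2810. The number of the 10 genes called is thus no result about them here either, and sizes are described. In MSTO-211H, 7 of the 10 were higher and 3 lower, beside 39% of all genes called higher and 40.7% called lower. SREBF1 was 68.8 and 64.8 CPM in H2810 and 277 and 254 CPM in MSTO-211H (1.99 ± 0.06, adjusted p = 5.44e-11). FASN was 267 and 212 against 912 and 796 CPM (1.83 ± 0.12, adjusted p = 4.29e-08), FADS2 26.3 and 28.0 against 89.9 and 81.1 CPM (1.66 ± 0.07, adjusted p = 8.39e-10), and SCD 386 and 405 against 1102 and 1082 CPM (1.46 ± 0.05, adjusted p = 2.16e-10). ACACA (1.45 ± 0.12), ACLY (0.73 ± 0.05) and ELOVL6 (0.53 ± 0.06) were also higher, with adjusted p of 2.68e-07, 3.27e-08 and 1.01e-05. ACSS2 (-0.76 ± 0.07), ELOVL5 (-0.63 ± 0.05) and FADS1 (-0.22 ± 0.05) were lower, with adjusted p of 7.78e-07, 2.52e-07 and 0.000998. In both tables the lines compared with H2810 thus had more SCD, FASN, ACACA, FADS2 and SREBF1 and less ACSS2, while ELOVL5 and FADS1 lay above H2810 in H2731 and below it in MSTO-211H. H2810 was the only reference line in both, so a trait of H2810 and a trait shared by the other lines cannot be told apart. The tables were fitted separately, and H2731 was not compared with MSTO-211H.

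**Figure D3:**
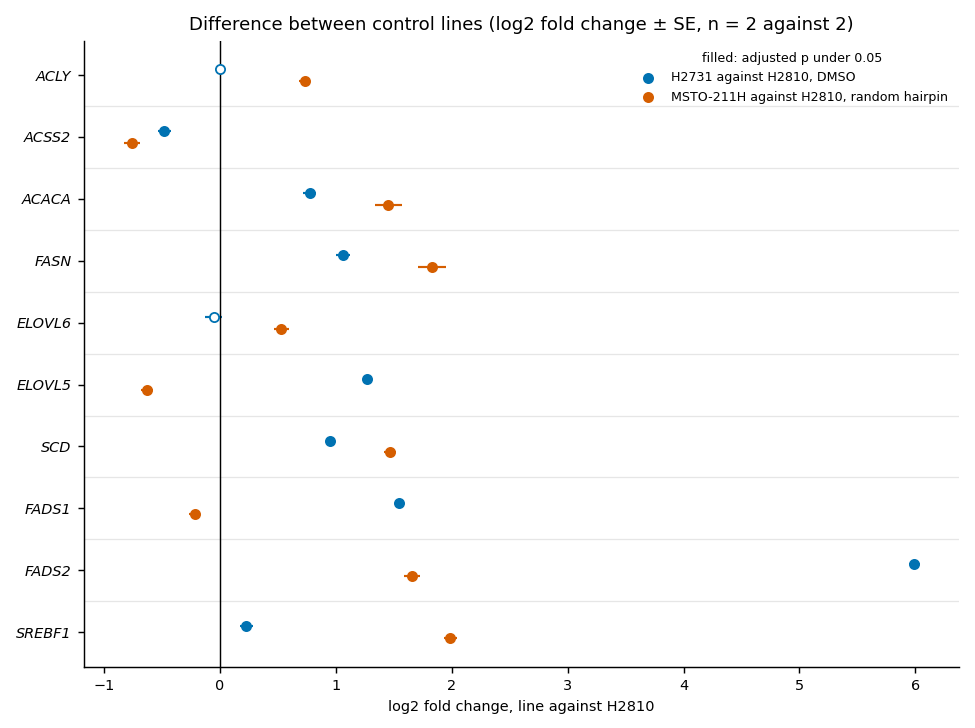
Log2 fold change between control lines with its SE (n = 2 against 2): H2731 against H2810 under DMSO, and MSTO-211H against H2810 with the random hairpin; filled points passed an adjusted p of 0.05. FADS2 in H2731 stands at 5.99, ACSS2 is left of 0 in both, and FADS1 and ELOVL5 are on opposite sides of 0.

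Levels of different genes were compared per kilobase of exon, the union of annotated exons of each gene. The union pools the exons of all annotated transcripts, so the order depends on how many are annotated. It held 10553 bases for FADS2 and 10228 for FADS1, against 3295 for Fads2 and 4812 for Fads1 in the mouse. Levels of FADS2 and FADS1 may thus be set too low beside the other genes. In H2810 under DMSO the order was SCD (163 CPM per kb), ACLY (113), ELOVL5 (86.6), FASN (33.0), FADS1 (27.8), SREBF1 (14.3), ACACA (13.2), ACSS2 (9.67), ELOVL6 (3.49) and FADS2 (2.14), where SREBF1 and ACACA differed by little. In H2731 under DMSO FADS2 moved from the tenth place to the third, at 136 CPM per kb, behind SCD (314) and ELOVL5 (208). In MSTO-211H with the random hairpin the order began with SCD (208), ACLY (136) and FASN (91.6) and ended with FADS2 (8.10), ELOVL6 (6.69) and ACSS2 (3.86).

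Knockdown of BAP1 in H2810 raised 6 of the 10 genes and lowered 2, beside 22.5% of all genes called higher and 23.3% called lower. The median log2 fold change of the 10 was 0.38, beside -0.03 for all genes. FASN, SCD, FADS1 and ACACA rose most, SREBF1 and ACLY less, FADS2 and ELOVL5 fell, and ELOVL6 and ACSS2 were not called. The 10 genes took 0.183% and 0.185% of counts with the random hairpin and 0.261% and 0.278% with shBAP1.

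FASN in H2810 was 267 and 212 CPM with the random hairpin and 488 and 392 CPM with shBAP1 (log2 fold change 0.88 ± 0.12, adjusted p = 0.000107). ACACA was 141 and 116 CPM and then 220.03 and 166 CPM (0.59 ± 0.11, adjusted p = 0.0014), a difference of 0.38 without shBAP1 replicate 1. In both genes replicate 1 lay above replicate 2 in each hairpin group, and the groups did not overlap. The spread between replicates was wider in H2810 than in MSTO-211H in this table, with a chi-square per degree of freedom over genes of 16.5 and 16.3 against 2.21 and 2.18.

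SCD went from 386 and 405 CPM to 729 and 677 CPM with shBAP1 in H2810 (0.83 ± 0.05, adjusted p = 4.22e-07), and FADS1 from 219 and 224 CPM to 379 and 367 CPM (0.75 ± 0.05, adjusted p = 3.81e-07). SREBF1 went from 68.8 and 64.8 CPM to 86.9 and 89.5 CPM (0.40 ± 0.06, adjusted p = 0.000248), and ACLY from 424 and 429 CPM to 564 and 539 CPM (0.37 ± 0.05, adjusted p = 6.4e-05). The groups of these 4 genes did not overlap.

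FADS2, already low in H2810, fell from 26.3 and 28.0 CPM to 19.9 and 18.7 CPM (-0.49 ± 0.08, adjusted p = 0.000385). ELOVL5 fell from 238 and 248 CPM to 215 and 211 CPM (-0.19 ± 0.05, adjusted p = 0.00777), a call lost without random hairpin replicate 2 (adjusted p = 0.121), without the low-count filter (0.152) and with DESeq2 (0.058). ELOVL6 was 33.9 and 33.5 CPM and then 39.0 and 35.1 CPM (0.14 ± 0.06, adjusted p = 0.0995), and was called higher without shBAP1 replicate 2 (adjusted p = 0.0275). ACSS2 was 34.9 and 33.7 CPM and then 37.1 and 36.1 CPM (0.09 ± 0.06, adjusted p = 0.27).

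**Figure D4:**
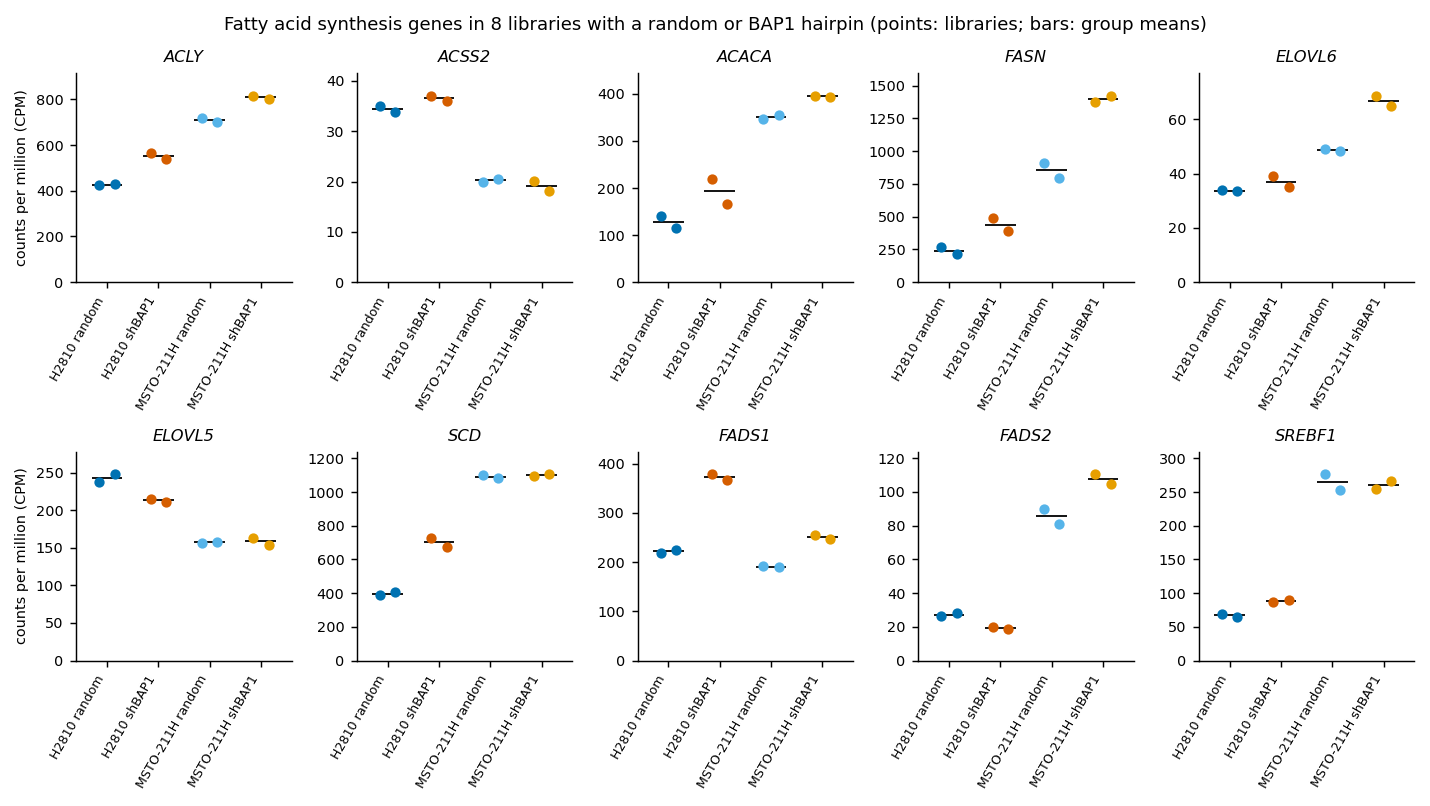
Levels of the 10 genes in the 8 libraries of the knockdown table, in CPM on an axis that starts at 0; each point is a library and each bar a group mean (n = 2). FASN, FADS1 and ACLY are higher with shBAP1 in both lines. SCD goes from 386 and 405 to 729 and 677 CPM in H2810 and stays between 1082 and 1108 CPM in MSTO-211H.

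In MSTO-211H, shBAP1 raised 5 of the 10 genes and lowered 0, beside 21.7% of all genes called higher and 24.5% called lower. The median log2 fold change of the 10 was 0.18, beside -0.02 for all genes. FASN rose from 912 and 796 CPM to 1372 and 1424.5 CPM (0.71 ± 0.11, adjusted p = 0.000394). ELOVL6 rose from 48.9 and 48.4 CPM to 68.7 and 64.9 CPM (0.46 ± 0.06, adjusted p = 8.94e-05). FADS1 rose from 192 and 189.8 CPM to 254 and 247 CPM (0.39 ± 0.05, adjusted p = 3.8e-05). FASN, FADS1 and ACLY, whose values follow, were thus called higher with shBAP1 in each line, with groups that did not overlap.

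FADS2 rose in MSTO-211H from 89.9 and 81.1 CPM to 111 and 105 CPM (0.33 ± 0.06, adjusted p = 0.00112), and ACLY from 717 and 700.1 CPM to 816 and 803 CPM (0.19 ± 0.05, adjusted p = 0.00482). SCD was 1102 and 1082 CPM with the random hairpin and 1097 and 1108 CPM with shBAP1 (0.01 ± 0.05, adjusted p = 0.862), so that the groups overlapped. SREBF1 overlapped too, at 277 and 254 CPM and 255 and 266 CPM (-0.03 ± 0.06, adjusted p = 0.74). ACACA (0.17 ± 0.11, adjusted p = 0.239), ACSS2 (-0.09 ± 0.07, adjusted p = 0.352) and ELOVL5 (0.01 ± 0.05, adjusted p = 0.868) were not called. In a fit of MSTO-211H alone ACACA was called higher (0.19, adjusted p = 0.000113), as it was without the low-count filter (0.18, adjusted p = 0.041).

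By the interaction of line and hairpin, the response of MSTO-211H was higher than that of H2810 for 2 genes and lower for 3, beside 11.2% and 16.5% of all genes called in those directions. FADS2 differed by 0.82 ± 0.10 (adjusted p = 0.00013), having fallen in H2810 and risen in MSTO-211H. SCD differed by -0.82 ± 0.07 (adjusted p = 1.34e-05), SREBF1 by -0.43 ± 0.08 (adjusted p = 0.0027) and FADS1 by -0.36 ± 0.06 (adjusted p = 0.00191). ELOVL6 differed by 0.32 ± 0.09 (adjusted p = 0.0199), a call lost when any library but H2810 shBAP1 replicate 1 and MSTO-211H shBAP1 replicate 2 was left out (adjusted p from 0.0507 to 0.0911 over those 6), and with DESeq2 (0.101) or no low-count filter (0.0862). FASN, ACACA, ACLY and ACSS2 (-0.16 ± 0.16, -0.42 ± 0.16, -0.18 ± 0.06 and -0.18 ± 0.10) and ELOVL5 (0.20 ± 0.07) were not called. The adjusted p of ACACA (0.0725) fell under the threshold without H2810 random hairpin replicate 1 (0.0247), without H2810 shBAP1 replicate 2 (0.000665), with RLE scaling (0.0464), with the replicate block (0.0191) and with no low-count filter (5.48e-05). So did that of ACLY (0.0635) without random hairpin replicate 2 (0.0364) and shBAP1 replicate 2 (0.0423) of H2810 and with limma-voom (0.0246), and that of ELOVL5 (0.05) without H2810 random hairpin replicate 1 (0.0355), with limma-voom (0.0334) and with the stricter filter (0.0309).

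Of the controllers, INSIG1 moved in opposite directions in the 2 lines. It rose with shBAP1 in H2810 from 42.0 ± 0.579 to 75.4 ± 1.01 CPM (0.84 ± 0.05, adjusted p = 2.89e-07) and fell in MSTO-211H from 88.2 to 77.9 CPM (-0.18 ± 0.05, adjusted p = 0.00866), a difference between lines of -1.02 ± 0.07 (adjusted p = 2.14e-06). SREBF2 rose in H2810 from 68.2 ± 0.825 to 137 ± 7.64 CPM (1.01 ± 0.05, adjusted p = 1.49e-07) and in MSTO-211H by 0.48 ± 0.05 (adjusted p = 2.22e-05), with a difference between lines of -0.53 ± 0.07 (adjusted p = 0.000344). SCAP was not called in H2810 (-0.03 ± 0.04, adjusted p = 0.625) or in MSTO-211H (-0.01 ± 0.05, adjusted p = 0.908).

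The lists around the pathway are read beside 45.8% of all genes called in H2810 and 46.2% in MSTO-211H, in either direction. Of 12 supply genes, 6 rose and 2 fell in H2810 with shBAP1, and 5 rose and 2 fell in MSTO-211H. IDH1 rose in both lines (0.61 ± 0.05 and 0.65 ± 0.05, adjusted p = 1.82e-06 and 8.97e-07). Of 18 activation and esterification genes 7 rose and 5 fell in H2810, and 7 rose and 8 fell in MSTO-211H, where PLIN2, a coat protein of lipid droplets, fell (-1.01 ± 0.08, adjusted p = 1.4e-06) and LPIN2 rose (1.18 ± 0.05, adjusted p = 1.58e-08). Of 10 other elongation genes 3 rose and 2 fell in H2810 and 3 rose and 5 fell in MSTO-211H, and ELOVL1 fell in both (-0.69 ± 0.05 and -0.78 ± 0.05). Of 8 other desaturases and electron donors, 1 rose and 0 fell in H2810, and 3 rose and 3 fell in MSTO-211H, FADS3 among the falls (-0.83 ± 0.07, adjusted p = 1.84e-06).

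Of 8 tested genes listed with synthesis, 4 rose and 1 fell in H2810 and 1 rose and 1 fell in MSTO-211H. PPT1, a lysosomal thioesterase on that list and not a synthesis enzyme, rose in H2810 (0.81 ± 0.05, adjusted p = 3.55e-07) and fell in MSTO-211H (-0.24 ± 0.05, adjusted p = 0.00123). Of 16 regulators, 6 rose and 5 fell in H2810 and 6 rose and 4 fell in MSTO-211H. Of 22 oxidation and uptake genes, 6 rose and 3 fell in H2810 and 3 rose and 4 fell in MSTO-211H, no larger a share than the 45.8% and 46.2% of all genes called. Of 13 mesothelial markers tested, 5 rose and 1 fell in H2810, where their summed level was 1797 and 1876 CPM with the random hairpin and 1799 and 1795 CPM with shBAP1. In MSTO-211H 8 rose and 2 fell, and the summed level was 8930 and 9643 CPM with the random hairpin and lay between 10774 and 11313 CPM with shBAP1. Summed leukocyte markers went from 0.765 to 0.820 CPM to 3.17 to 3.30 CPM in MSTO-211H. The part of either list in the changes of the 10 genes was not tested.

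In the mouse cells, 0 of the 10 genes were called in either direction between BNC and NC with edgeR, and 0 of all 12225 genes were (0% higher, 0% lower). At an unadjusted p under 0.05 there were 823 genes, 0 of the 10 among them, and DESeq2 called 102 genes higher and 257 lower, again 0 of the 10. Without BNC replicate 6, 2624 of 11880 tested genes had an unadjusted p under 0.05, 4 of the 10 among them. With the replicate block 2116 of 12225 did, again with 4 of the 10. After adjustment 0 of the 10 passed in either fit. The median log2 fold change of the 10 was 0.26 beside 0.03 for all genes. The square root of the common dispersion, the relative spread between replicates, was 0.539 in the mouse table against 0.0311 and 0.0533 in the human tables.

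Fasn was 1539, 1716 and 678 CPM in BNC replicates 4, 5 and 6 and 1088 and 993 CPM in NC replicates 4 and 5 (0.33 ± 0.44, adjusted p = 0.93). Acly was 578, 593 and 319.9 CPM against 384 and 381 CPM (0.38 ± 0.32), Acaca 456, 446 and 241 against 346 and 248 CPM (0.36 ± 0.36), and Elovl6 161, 149 and 85.9 against 105 and 101 CPM (0.36 ± 0.32). In each of these 4 genes BNC replicates 4 and 5 lay above both NC libraries and replicate 6 below both. Without BNC replicate 6 their log2 fold changes were 0.64, 0.61, 0.60 and 0.59, with adjusted p of 0.132, 0.124, 0.202 and 0.133. With other libraries left out singly they went down to 0.0939, 0.235, 0.137 and 0.195.

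Scd1 was 402, 395 and 335 CPM in BNC and 315 and 427 CPM in NC (0.02 ± 0.21, adjusted p = 0.99). Fads2 was 229.6, 226 and 189 against 122 and 201 CPM (0.41 ± 0.27), and Fads1 314, 327 and 373 against 267 and 330.4 CPM (0.18 ± 0.19). Without NC replicate 4 these fold changes were 0.10 for Fads2 and 0.0355 for Fads1, and without NC replicate 5 they were 0.81 and 0.34. Srebf1 was 82.9, 96.3 and 189.5 against 97.3 and 166 CPM (-0.10 ± 0.46), with BNC replicate 6 the highest library, and Elovl5 was 118, 105 and 107 against 90.8 and 155 CPM (-0.16 ± 0.27). Acss2 was low throughout, at 2.69, 3.89 and 13.1 against 4.34 and 9.90 CPM (-0.12 ± 0.83). In all 6 genes the groups overlapped.

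The mouse carries several Scd genes where the human genome has SCD and SCD5. Scd2 was the most abundant, at 1747, 1726 and 2023 CPM in BNC and 2185 and 2267 CPM in NC (-0.28 ± 0.19), with the NC libraries above all BNC libraries and no call. Per kilobase of exon Scd2 led the mouse genes described here in both groups, at 335 CPM per kb in BNC and 407 CPM per kb in NC, against 77.1 and 75.8 CPM per kb for Scd1. Scd3 did not pass 0.0878 CPM, nor Scd4 4.34 CPM, in any library. Of the controllers, Srebf2 was 366 ± 39.2 CPM in BNC (n = 3) and 216 ± 9.31 CPM in NC (n = 2) (0.76 ± 0.18, adjusted p = 0.548).

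**Figure D5:**
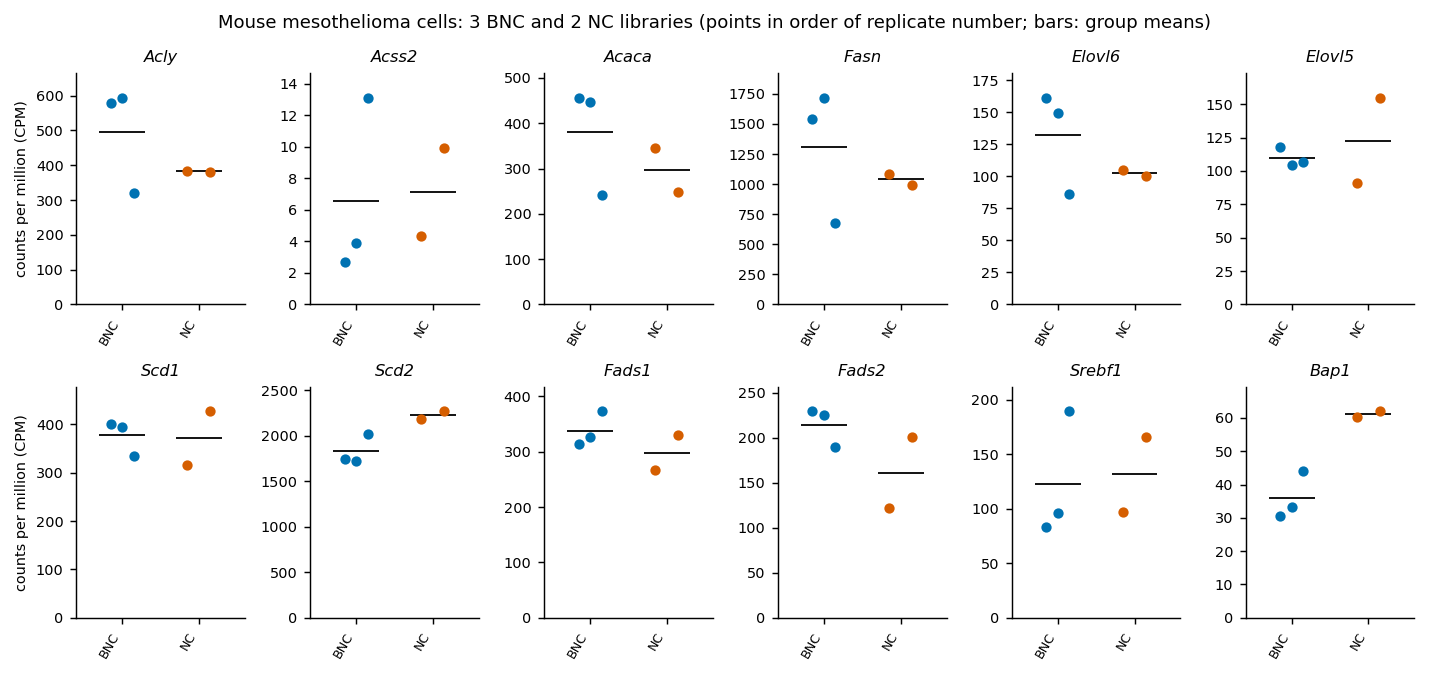
Levels of the 10 mouse genes with Scd2 and Bap1 in 3 BNC and 2 NC libraries, in CPM on an axis that starts at 0; points are libraries in the order of their replicate numbers and bars are group means. Fasn, Acly, Acaca and Elovl6 are high in BNC replicates 4 and 5 and low in replicate 6, and Bap1 is lower in all 3 BNC libraries than in the NC libraries.

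How far the 10 genes moved together was described over the 16 human libraries, after subtracting the mean of each line in each table, as log2 CPM. Against the mean of the 9 others, the Pearson correlation was 0.91 for SCD and for FADS1, 0.80 for FASN and for ELOVL6, 0.74 for ACSS2, 0.70 for ACLY and 0.69 for ACACA. It was 0.28 for SREBF1, 0.24 for FADS2 and -0.41 for ELOVL5. Among 11326 genes compared, the 10 included, the other genes most like the mean of the 10 were F2R (0.98), PRDX5 (0.97), NPC1 (0.97), OXCT1 (0.97) and RUNX2 (0.97). F2R encodes a thrombin receptor, NPC1 a lysosomal cholesterol exporter, OXCT1 an enzyme of ketone body use, PRDX5 a peroxiredoxin and RUNX2 a transcription factor of bone. These 5 were picked for their likeness over the same libraries, so their own responses are no further evidence. The 16 libraries are 8 groups of 2 that share treatments and lines, so the correlations are descriptions with no test.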

How the data were processed

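RNA was sequenced from poly-A libraries as single-end reads, per the labels' protocols. The submitters' processing notes name TopHat2 2.0.12, TopHat, HTSeq and DESeq2 and the mouse builds mm10 and GRCm38, with no role or order; the human build, strand setting and handling of multiply matching reads are not given in the sources used here. The deposited values are raw counts per gene, not normalized by the authors. For each of the 3 tables a single edgeR 4.0.16 model (R 4.3.3) held all groups: filterByExpr, TMM scaling, quasi-likelihood F tests and Benjamini-Hochberg adjustment over all genes tested, with calls at an adjusted p under 0.05. Levels are CPM of TMM-scaled library sizes, and the SE is the size of the log2 fold change divided by the square root of F. Responses of 2 lines were compared as interactions.

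The 10 genes and the gene lists were chosen with earlier results of these data known. Named genes were the 10, BAP1, Scd2 to Scd4, INSIG1, SREBF2 and SCAP, up to 2 called genes per pathway list and comparison with the smallest p (not all are printed), and the 5 genes most correlated with the mean of the 10, among genes whose mean log2 CPM reached 1. LPL, UPK3B, MSLN, WT1, Calb2 and SCDP1 were named beside these as markers or a pseudogene. Alternatives were RLE scaling, no filter, DESeq2 1.42.0, a minimum of 50 counts in 2 libraries, limma-voom (limma 3.58.1), the 2 groups alone, a block for the replicate number, and leaving out libraries singly. Residuals of libraries with the same number correlated from -0.065 to 0.098 in the human tables, and at 0.34 and -0.31 in the mouse, so the numbers were not taken as pairs. Exon lengths came from GENCODE annotations of GRCh38 and GRCm38, promoters from RefSeq on GRCh38.p14.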

Additional observations from a re-analysis of the deposited data

Results flagged for a closer look

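For 7 of the 10 genes the response to GSK126 differed between H2731 and H2810 by the interaction test, beside 14.7% of all genes. Each difference is the response in H2731 minus that in H2810 on the log2 scale (edgeR, adjusted over all genes). The differences were 1.30 for ELOVL6, 1.13 for ACSS2, 0.53 for ACLY, 0.20 for SCD, 0.20 for FADS2, 0.15 for FADS1 and -0.99 for SREBF1. ACLY and SREBF1 were called in opposite directions in the 2 lines. The lower call of SREBF1 in H2731 was lost without DMSO replicate 1, without GSK126 replicate 2 and with DESeq2. The calls of FADS1 and FADS2 were lost in most fits with 1 library left out, and with DESeq2. For 5 of the 10 genes the response to shBAP1 differed between MSTO-211H and H2810, beside 27.7% of all genes, given as MSTO-211H minus H2810. The differences were 0.82 for FADS2, 0.32 for ELOVL6, -0.36 for FADS1, -0.43 for SREBF1 and -0.82 for SCD. FADS2 was called in opposite directions in the 2 lines. The call of ELOVL6 was lost in most fits with 1 library left out, and with DESeq2. Groups of 2 or 3 libraries are too small for a check of single outlying libraries.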

How the results depend on the processing

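Over 1155 refits of single genes under the alternatives, 1055 kept direction and side of the threshold, 53 lost a call, 16 gained one and 31 changed sign; no sign change touched a called gene. The number of genes called higher with GSK126 in H2810 ranged from 5 to 6 with 1 library left out. The 1 lower call in H2731 became 0 with DESeq2, and ranged from 0 to 1 with 1 library left out. The 2 lower calls with shBAP1 in H2810 became 1 with no filter on low counts and 1 with DESeq2, and ranged from 1 to 2 with 1 library left out. For the hairpin interaction the 2 higher calls became 1 with no filter and 1 with DESeq2, and ranged from 1 to 2 with 1 library left out, and the lower calls from 3 to 5. Uncalled values changed sign as follows, as the range with 1 library left out: in the mouse Scd1 -0.18 to 0.26, Acss2 -1.13 to 0.59, Srebf1 -0.56 to 0.33 and Elovl5 -0.49 to 0.27; with GSK126 in H2731 ELOVL5 -0.0018 to 0.028; between H2731 and H2810 ACLY -0.0195 to 0.0264 and ELOVL6 -0.14 to 0.0373; in the drug interaction ACACA -0.12 to 0.0731 and FASN -0.13 to 0.15; with shBAP1 in MSTO-211H SREBF1 -0.0902 to 0.0389, SCD -0.0022 to 0.0273 and ELOVL5 -0.0272 to 0.0563; and in the hairpin interaction BAP1 -0.11 to 0.49. ACLY between these lines was -0.0031 with no filter, -0.0163 with the stricter filter and -0.012 with the 2 groups alone, and SREBF1 with shBAP1 in MSTO-211H 0.0055 with RLE scaling and 0.0033 with DESeq2. The cause of these changes was not tested. With the replicate block, 4 genes instead of 3 were called lower in the hairpin interaction (ACACA added, adjusted p = 0.0191), no other call of the 10 changed, and in the mouse 1 gene of all was called. With 2 libraries per group, a lone library left in a group is assumed to vary like the others.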

Other observations

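SCDP1, a pseudogene of SCD, had few counts: 12 and 13 under DMSO and 38 and 42 with GSK126 in H2731, 11 and 9 and then 14 and 14 in H2810, and from 4 to 15 in the knockdown table. Whether these reads came from SCD or from SCDP1 was not tested. H2810 was sequenced in both human tables, and its control levels, scaled separately in each, were not the same: SCD was 855 ± 17.2 CPM with DMSO and 396 ± 13.5 CPM with the random hairpin, SREBF1 118 ± 6.83 and 66.8 ± 2.81 CPM, and ACLY 586 ± 15.2 and 427 ± 3.29 CPM (n = 2 each). FADS2 was 22.6 ± 0.378 and 27.1 ± 1.2 CPM. Vehicle, hairpin and preparation cannot be told apart here, so no difference between the tables was tested.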
